A study of Mus musculus with 6 samples.

Results

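Cytotoxic lymphocytes store granzymes in secretory granules and make inhibitors of granule proteases. Described here in mouse natural killer (NK) cells are 8 genes of such inhibitors and of granule components. They are the clade B serpins Serpinb9, Serpinb9b, Serpinb6a, Serpinb6b and Serpinb1a, the cystatin gene Cst7, the proteoglycan gene Srgn and the granule membrane gene Nkg7. They were chosen by gene symbol with earlier results of these data known. All 8 were measured among the 19943 genes of the array, each by 1 probe set. Affymetrix arrays were hybridised with RNA from 6 NK cell preparations, 3 for cells generated in IL-18 and 3 for unstimulated cells. Per the labels, the IL-18 culture began with NK1.1 isolated cells, held 300 IU of IL-2 and 25 ng/ml of IL-18 overnight, and ended in a sort of live NK1.1+, CD3-, CD11b- and c-kit+ cells. The unstimulated cells were sorted as live NK1.1+, CD3-, CD11b+ and c-kit- cells, and the sources used here leave unclear if they too saw culture or IL-2. IL-18, the culture with IL-2 and the sort gate therefore cannot be told apart in any difference between the groups.

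Serpins are suicide inhibitors: the target protease cuts an exposed loop, and both proteins are left bound to each other. Those of clade B lack a classical secretion signal and act largely inside cells, where they can inactivate granule proteases that leak into the cytosol. Cystatin F, the product of Cst7, is a cystatin that reaches lysosomes and lytic granules and inhibits cysteine cathepsins, among them cathepsin C, which removes the propeptide of granzymes. Serglycin, from Srgn, carries sulfated glycosaminoglycan chains on which granzymes and perforin are packed. The product of Nkg7 is a membrane protein of cytotoxic granules and takes part in their exocytosis in mice.

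In the IL-18 generated cells, 6 of the 8 genes fell and 0 rose. Serpinb9b fell most, with a log2 change of -3.08 ± 0.21 (± SE from the fit, with 3 arrays in each group, here and for each change that follows), and was lower by a factor of 8.45. Serpinb6b, Serpinb1a and Cst7 fell by more than 2-fold, and Nkg7 and Serpinb9 by less. Serpinb6a and Srgn did not pass the test. Rose and fell are used of genes with an adjusted p below 0.05 in limma's moderated test with Benjamini-Hochberg adjustment over all 19943 genes. By that rule 16.7% of all genes fell and 19.7% rose. With a log2 change of at least 1 as well, 4 of the 8 genes fell and 0 rose, against 3.24% and 3.62% of all genes. The median change was -0.96 over the 8 genes and -0.06 over all genes. Because the 8 genes were chosen with earlier results known, these comparisons are descriptions and do not test for an excess over all genes.

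**Figure D1:**
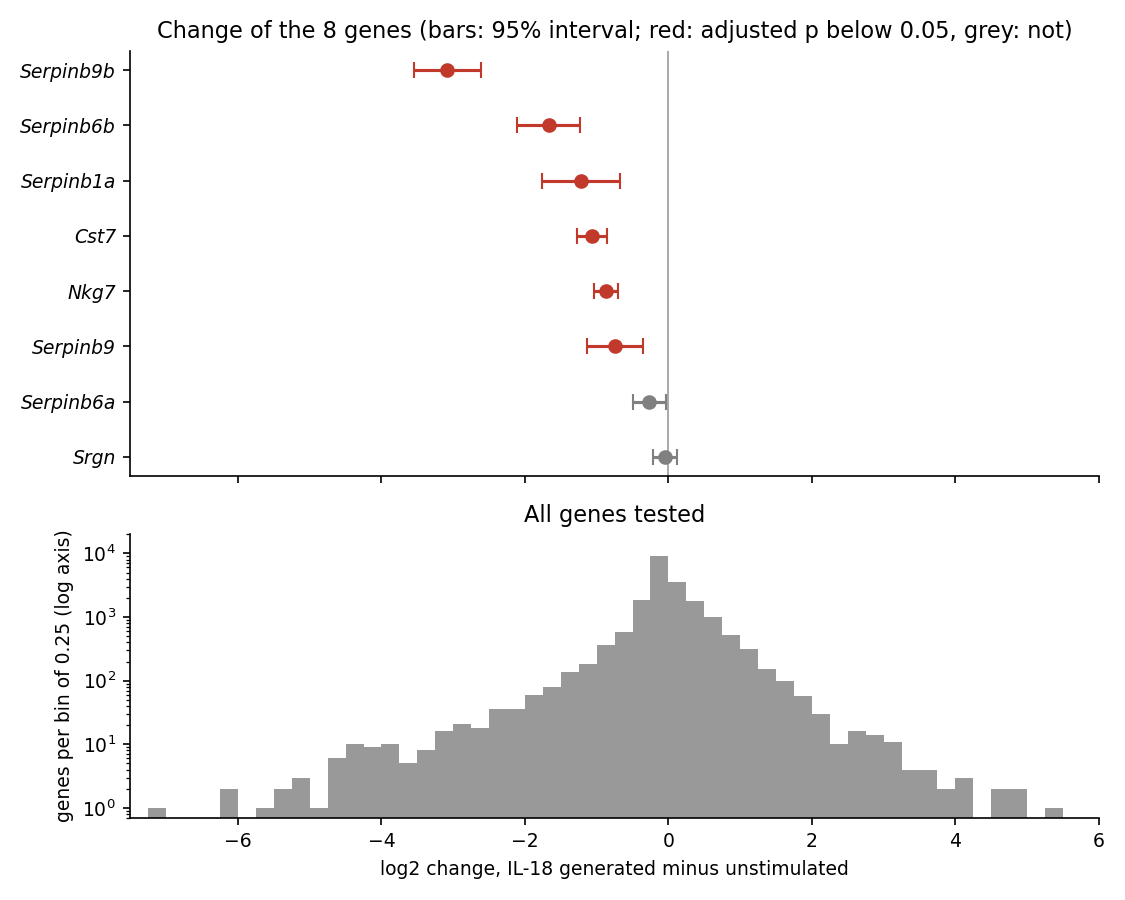
Upper panel: log2 change (IL-18 generated minus unstimulated) of each of the 8 genes with its 95% interval, red where the limma adjusted p was below 0.05. Lower panel: number of genes per bin of log2 change for all 19943 genes, on a logarithmic count axis. Serpinb9b lies at -3.08 in the thin left tail and Srgn at -0.05 under the central peak.

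The deposited log2 values had each probe set's median over the 6 arrays set to 0. They give changes and no expression levels, and levels are not compared between genes. In RNA of a whole preparation, fewer cells of a type and less RNA per cell cannot be told apart. Kit and Itgam followed the gates, with log2 changes of 2.79 ± 0.13 and -5.32 ± 0.11. All 12 measured NK cell markers fell, the receptor gene Klrb1c, which encodes the NK1.1 antigen, with -2.03 ± 0.11, and because the values hold no level they cannot show how strongly NK genes were expressed. Markers of other leukocytes moved between the groups as well: 13 of 13 monocyte, 16 of 16 neutrophil, 8 of 9 B cell and 8 of 11 mast cell and basophil markers fell. The B cell count was 5 without IL-18 replicate 3 or without unstimulated replicate 1 or 3. Of 12 dendritic cell markers, 7 fell and 3 rose, and over the fits without 1 array 6 to 9 of them fell. The CD3 chain genes rose, with 1.11 ± 0.14 for Cd3d, 1.26 ± 0.21 for Cd3e and 1.60 ± 0.20 for Cd3g, and they were the 3 of 10 T cell markers that did. The part of these cells in the changes of the 8 genes was not tested. The labels and the design text describe separate preparations, and p-values rest on the spread of these 6 arrays alone, a number that limits the precision.

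The 5 serpin genes lie in 1 stretch of chromosome 13 in which all 16 protein-coding genes of the reference annotation are clade B serpins. Serpinb6b, Serpinb9 and Serpinb9b are direct neighbours there. The sequences upstream of the 2 Serpinb9 genes are shown because these paralogs lie side by side and fell by unlike amounts, and those of Nkg7 and Cst7 because both genes fell with little spread between arrays. Each is the stretch of 250 bases before the annotated start, from RefSeq on build GRCm38.p6. The positions are chr13:33004291-33004540 for Serpinb9, chr13:33027164-33027413 for Serpinb9b, chr7:43436888-43437137 for Nkg7 and chr2:150570165-150570414 for Cst7, all on the plus strand. Capitals mark matches to the motifs described after them.
Serpinb9: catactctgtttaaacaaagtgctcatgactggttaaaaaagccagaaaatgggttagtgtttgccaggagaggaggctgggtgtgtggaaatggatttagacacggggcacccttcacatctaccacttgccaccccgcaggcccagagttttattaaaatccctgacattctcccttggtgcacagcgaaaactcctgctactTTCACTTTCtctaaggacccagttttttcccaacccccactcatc
Serpinb9b: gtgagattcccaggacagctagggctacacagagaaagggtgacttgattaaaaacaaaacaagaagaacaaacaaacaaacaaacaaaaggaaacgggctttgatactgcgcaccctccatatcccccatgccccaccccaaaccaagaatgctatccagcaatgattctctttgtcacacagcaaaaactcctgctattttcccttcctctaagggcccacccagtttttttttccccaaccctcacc
Nkg7: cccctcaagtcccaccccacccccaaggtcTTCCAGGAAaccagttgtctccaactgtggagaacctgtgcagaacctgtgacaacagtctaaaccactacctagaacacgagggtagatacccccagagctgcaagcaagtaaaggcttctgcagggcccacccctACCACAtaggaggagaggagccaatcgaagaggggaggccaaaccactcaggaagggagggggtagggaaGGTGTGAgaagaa
Cst7: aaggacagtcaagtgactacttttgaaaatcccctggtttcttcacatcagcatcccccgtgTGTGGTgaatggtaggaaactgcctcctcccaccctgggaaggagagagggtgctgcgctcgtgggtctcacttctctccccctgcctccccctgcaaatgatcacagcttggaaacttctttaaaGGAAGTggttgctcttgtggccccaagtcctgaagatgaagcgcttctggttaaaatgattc

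A global alignment of the Serpinb9 and Serpinb9b stretches had identical bases in 150 of 268 columns, or 56.0%. The other 33 pairs of upstream stretches from different genes described here had 37.5% to 49.5%. A total of 6 motifs was searched on both strands: a T-box element (GGTGTGA), a Runx core (TGTGGT), an Ets core (GGAAGT), an interferon response element (GAAANNGAA), a STAT site (TTCNNNGAA) and an NF-kB site. The Serpinb9 stretch held the interferon response element from 45 to 37 bases before the start, on the opposite strand, as do 7.1% of the 32851 stretches of the same length in the reference, and the Serpinb9b stretch held none of the 6. The Nkg7 stretch held the T-box element from 13 to 7 bases before the start (3.3% of all stretches), a Runx core (14.0%) and a STAT site (7.0%). That of Cst7 held a Runx core and, from 62 to 57 bases before the start, an Ets core (19.7%). For Serpinb6a and Srgn, which did not pass the test, 2 annotated starts each were searched. The upstream one of Serpinb6a held an interferon response element overlapping a STAT site, and those of Srgn held an Ets core at 1 start and a Runx core and an interferon response element at the other. The stretch of Serpinb6b held none of the 6 motifs, and Serpinb1a was not searched. These are matches of letters and show no binding.

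Serpinb9, known as SPI6 in the mouse, inhibits granzyme B and protects killer cells from their own protease. Its log2 values were -0.87, -0.41 and -0.09 in the IL-18 generated cells (replicates 1, 2 and 3, in this order throughout), against 0.09, 0.47 and 0.30 in unstimulated cells. The groups did not overlap, but the highest IL-18 array and the lowest unstimulated array lay close to each other. The change was -0.74 ± 0.17 (limma adjusted p = 0.00626), a 1.67-fold decrease.

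Serpinb9b, its neighbour, is described in the mouse as an inhibitor of granzyme M. It stood at -2.10, -1.57 and -1.23 in the IL-18 generated cells, against 1.23, 1.83 and 1.27 in the unstimulated cells. Every IL-18 array lay far below every unstimulated one. The limma adjusted p of its change was 1.59e-06, and 0.341% of all genes had a lower change.

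The 2 Serpinb9 genes differed in the size of their decrease while their replicates moved together. Within an array, Serpinb9 minus Serpinb9b was 1.23, 1.15 and 1.15 in the IL-18 generated cells, against -1.15, -1.36 and -0.97 in the unstimulated cells. These differences averaged 1.18 ± 0.05 in the IL-18 generated cells and -1.16 ± 0.20 in the unstimulated cells (SD, n = 3 each), whereas the single genes had SDs of 0.39 (Serpinb9) and 0.44 (Serpinb9b) over the IL-18 arrays. In both genes the lowest IL-18 array was replicate 1 and the highest was replicate 3. The mean of the 12 NK cell markers had the same order, at -0.85, -0.76 and -0.63, so this order is not particular to the 2 paralogs. The difference between groups in this within-array value was 2.34 (95% interval 2.11 to 2.56 by limma, as description only). Its exact two-sided permutation p was 0.1, the smallest that 3 against 3 arrays can give. Probes of close paralogs can read more than 1 of them, and probe sequences were not used here, so single values of the Serpinb9 and Serpinb6 genes are uncertain to that extent.

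**Figure D2:**
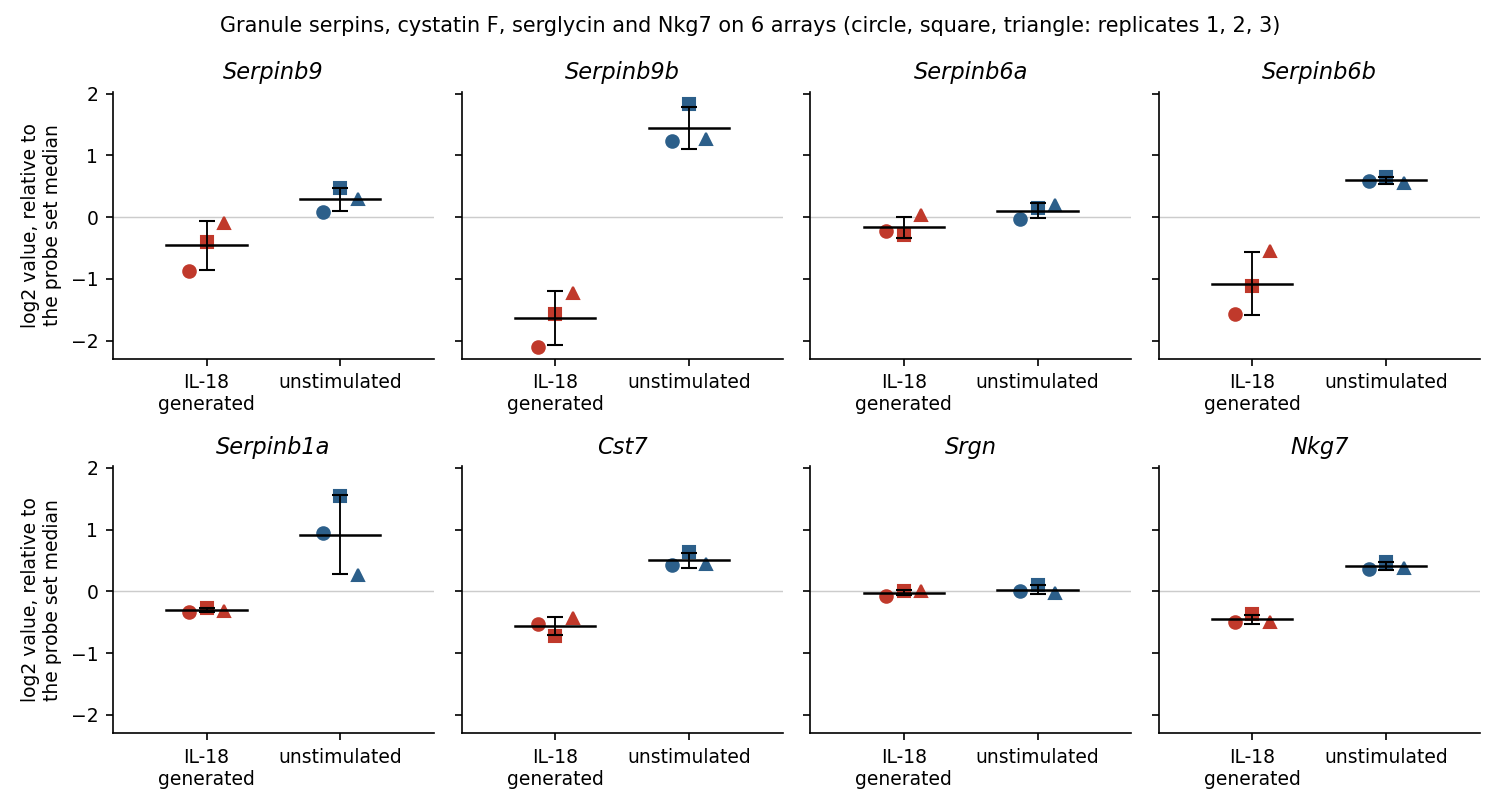
Log2 value of each of the 8 genes on the 6 arrays, relative to its probe set's median, with IL-18 generated cells in red and unstimulated cells in blue. Horizontal lines are group means and bars are SDs over 3 arrays. The groups are widely apart for Serpinb9b, whose values run from -2.10 to -1.23 in the IL-18 generated cells and from 1.23 to 1.83 in the unstimulated cells, and they overlap for Serpinb6a and Srgn.

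Serpinb6b, a mouse inhibitor of granzyme A, had values of -1.57, -1.11 and -0.55 in the IL-18 generated cells, against 0.58, 0.65 and 0.55 in the unstimulated cells. The groups were apart, with a wide spread over the IL-18 arrays (SD 0.51) and little over the unstimulated ones (SD 0.05). Its change of -1.67 ± 0.20, a 3.18-fold decrease, had a limma adjusted p of 7.45e-05. As for both Serpinb9 genes and for the mean of the NK cell markers, IL-18 replicate 1 was the lowest array and replicate 3 the highest of its group.

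Serpinb6a encodes a widely expressed inhibitor of trypsin-like proteases and of cathepsin G. It stood at -0.23, -0.29 and 0.03 in the IL-18 generated cells, against -0.03, 0.14 and 0.20 in the unstimulated cells. IL-18 replicate 3 lay above unstimulated replicate 1, so the groups overlapped. The change was -0.27 ± 0.10 (95% interval -0.49 to -0.04) with a limma adjusted p of 0.0639. The gene did pass without IL-18 replicate 3 (-0.36, adjusted p 0.0169), without unstimulated replicate 1 (-0.33, adjusted p 0.0469), with array weights (-0.30, adjusted p 0.0338) and with the replicate number as a block (-0.27, adjusted p 0.0376). The limma adjusted p lay between 0.0169 and 0.217 over all 13 alternatives.

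The Serpinb6 pair differed in its decrease too. Serpinb6a minus Serpinb6b was 1.35, 0.82 and 0.58 within the IL-18 arrays, against -0.61, -0.50 and -0.35 within the unstimulated arrays. The group difference of 1.40 (95% interval 1.04 to 1.77 by limma) again had the smallest exact two-sided permutation p possible, 0.1. Adjusted over the 2 paralog pairs compared, both stayed at 0.1.

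Across the 16 serpins of the stretch, 13 were measured as single genes and 5 fell: Serpinb1a, Serpinb6b, Serpinb9 and Serpinb9b, and with a small change Serpinb1b (-0.31 ± 0.09, limma adjusted p 0.0211). The call of Serpinb1b ended without IL-18 replicate 1 or 3 or without unstimulated replicate 1, the highest adjusted p being 0.0741. The other measured neighbours had changes between -0.27 and 0.16, that of Serpinb1c being -0.01. Serpinb9c, Serpinb9d and Serpinb9e, paralogs of the same subfamily, had changes of -0.08, 0.16 and -0.18 and did not pass. A change near 0 may mean that a gene was undetected in both groups.

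**Figure D3:**
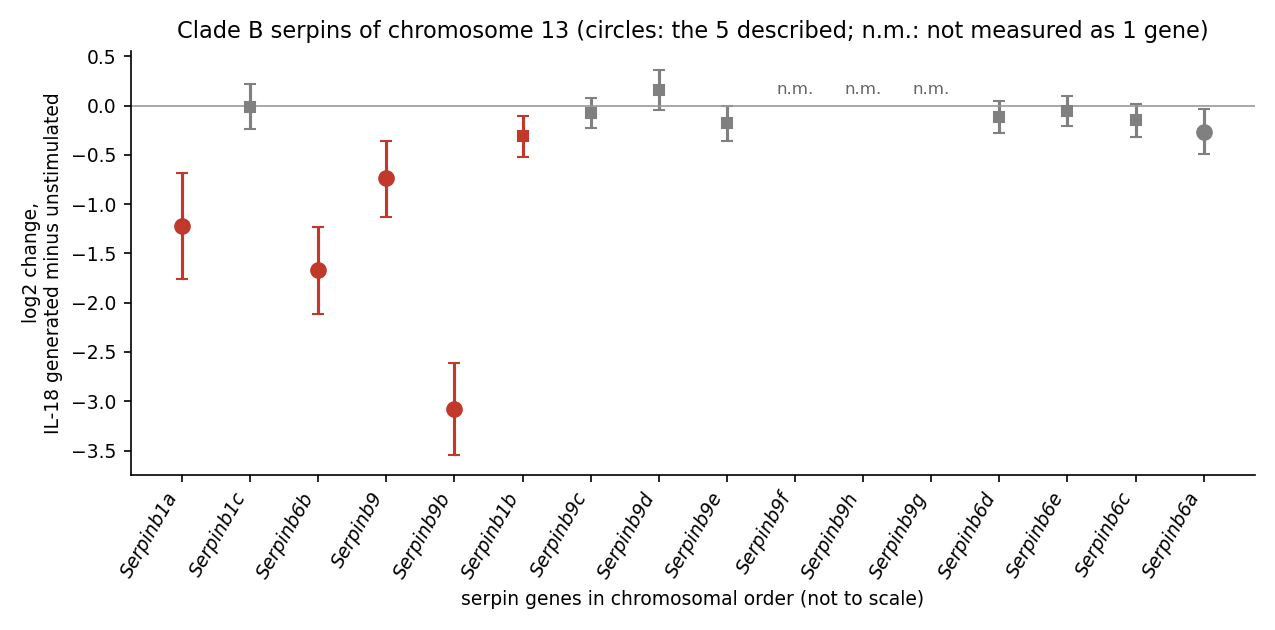
Log2 change (IL-18 generated minus unstimulated) with its 95% interval for the clade B serpins of the stretch on chromosome 13, in chromosomal order and not to scale. Circles are the 5 genes described, squares the others, red marks a limma adjusted p below 0.05, and n.m. marks genes not measured as a single gene. The decreases of Serpinb6b (-1.67), Serpinb9 (-0.74) and Serpinb9b (-3.08) stand side by side, while the measured genes from Serpinb9c to Serpinb6a lie between -0.27 and 0.16.

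Of all 19 measured clade B serpins other than the 5 described, 3 fell, 0 rose and 16 did not pass. Their median change was -0.08. Besides Serpinb1b these were Serpinb10 with -4.00 ± 0.16 (limma adjusted p 4.84e-08) and Serpinb8 with -0.39 ± 0.13 (adjusted p 0.0391). The call of Serpinb8 ended in 4 of the 6 fits that left out an array, those without IL-18 replicate 1 or 3 or unstimulated replicate 1 or 3, the highest adjusted p being 0.13. Monocyte markers fell in the same arrays as Serpinb10, with list means of -1.52 to -1.46 in the IL-18 generated cells and 1.37 to 1.91 in the unstimulated cells, and their part in its decrease was not tested. Of 8 measured serpins of other clades, 3 fell, with a median of -0.17. That count was 1 without unstimulated replicate 1 and 2 with the replicate number as a block: Serpind1, the heparin cofactor II gene (-0.24), lost its call under the block and in 5 of the 6 fits without 1 array, and Serpinf2, the alpha-2-antiplasmin gene (-0.36), without unstimulated replicate 1 (limma adjusted p 0.0525). The largest decrease among them was that of Serpini1, which encodes neuroserpin, with -0.45 ± 0.10 (limma adjusted p 0.00397).

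Serpinb1a inhibits neutrophil elastase, cathepsin G and proteinase 3, and it is best known from neutrophils. Its values were -0.33, -0.27 and -0.31 in the IL-18 generated cells, against 0.94, 1.55 and 0.27 in the unstimulated cells. The groups did not overlap. The IL-18 arrays lay close together (SD 0.03) and the unstimulated arrays far apart (SD 0.64). The change was -1.22 ± 0.24, a 2.33-fold decrease, with a limma adjusted p of 0.00232. Over the fits that left out 1 array it ran from -1.55 to -0.91.

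The order of the unstimulated arrays in Serpinb1a was shared with marker lists of other cells, and its highest array also with the NK cell list. The mean of the 16 neutrophil markers was -1.02, -0.84 and -1.15 in the IL-18 generated cells, against 1.05, 2.20 and 1.00 in the unstimulated cells. That of the 11 mast cell and basophil markers was -1.69, -0.45 and -1.72 in the IL-18 generated cells, against 1.29, 1.56 and 0.47 in the unstimulated cells. Both lists and Serpinb1a were highest in unstimulated replicate 2 and, of the unstimulated arrays, lowest in replicate 3. For the neutrophil mean, replicates 1 and 3 hardly differed. The mean of the 12 NK cell markers, at 0.60, 0.88 and 0.63 in the unstimulated cells, was also highest in replicate 2. Over the IL-18 arrays, Serpinb1a varied little while the mast cell and basophil mean was far higher in replicate 2. The values hold no level, so it cannot be read whether any defining marker was at background, and the part of neutrophils, mast cells and basophils in the decrease of Serpinb1a was not tested. Without unstimulated replicate 2 its change was -0.91, the smallest of the 6.

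**Figure D4:**
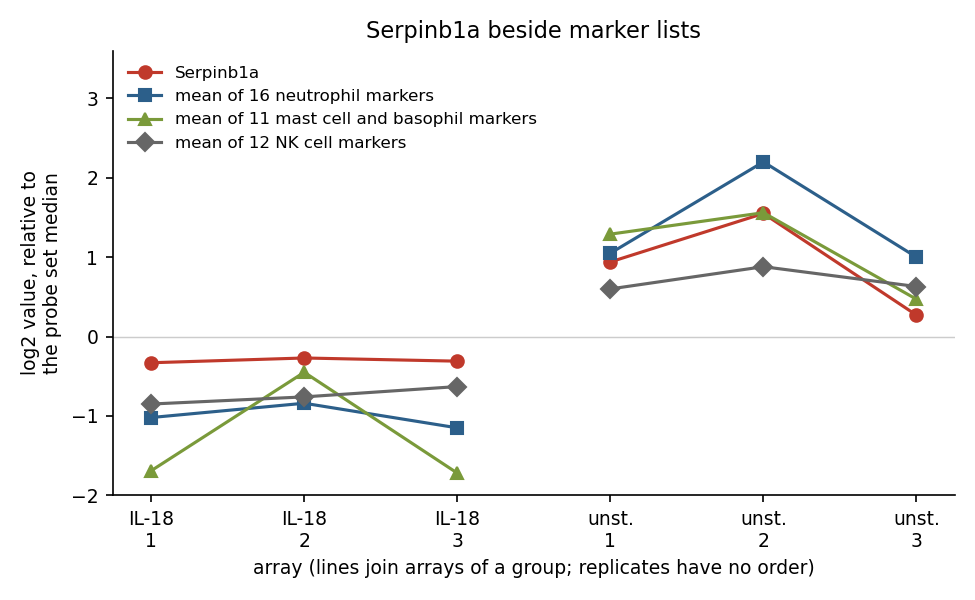
Log2 values of Serpinb1a on the 6 arrays, relative to its probe set's median, beside the means of the neutrophil, mast cell and basophil, and NK cell marker lists. Among the unstimulated arrays Serpinb1a stands at 0.94, 1.55 and 0.27, and the neutrophil mean at 1.05, 2.20 and 1.00, both highest in replicate 2. The NK cell mean, at 0.60, 0.88 and 0.63, is highest there too.

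Genes of granule proteases, among them targets of these serpins, were mostly lower in the IL-18 generated cells as well, by unequal amounts. The list used is not limited to such targets. Of 16 genes of granule proteases and perforin, 10 fell, 1 rose and 5 did not pass. Their median change was -0.75. Mcpt8, a basophil protease, and Gzma fell most, with -4.16 ± 0.86 and -4.10 ± 0.20. Mcpt8 had values of -4.02, -0.30 and -4.08 in the IL-18 generated cells, against 1.72, 2.05 and 0.30 in the unstimulated cells. Its change was -5.41 without IL-18 replicate 2, -3.55 without IL-18 replicate 1 and -3.51 without IL-18 replicate 3, so its place before Gzma (-4.29 to -3.86 over the fits without 1 array) depended on the arrays used. Gzmc was the 1 of the 16 that rose, by 2.72 ± 0.20. Gzmc has near copies among the other granzyme genes, whose probes may read each other, so its value is uncertain. Limma adjusted p for these 3 was at most 0.00307.

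Granzyme B, the target of Serpinb9, moved with its inhibitor from array to array, in an order of arrays that the NK cell markers shared. Gzmb had values of -0.66, -0.21 and -0.16 in the IL-18 generated cells, against 0.16, 0.53 and 0.31 in the unstimulated cells, and its change of -0.68 ± 0.14 (limma adjusted p = 0.00296) was close to that of Serpinb9. Serpinb9 minus Gzmb within an array averaged -0.11 ± 0.16 in the IL-18 generated cells and -0.05 ± 0.03 in the unstimulated cells (SD, n = 3 each). The groups differed in this value by -0.06, less than the spread between the IL-18 replicates. Within each group, the mean of the 12 NK cell markers ranked the arrays in the same order as both genes. It stood at -0.85, -0.76 and -0.63 in the IL-18 generated cells, against 0.60, 0.88 and 0.63 in the unstimulated cells. The shared order is therefore not particular to this pair.

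In the other serpin and protease pairs the groups stood apart in this difference. Serpinb6b minus Gzma averaged 1.08 ± 0.13 in the IL-18 generated cells and -1.35 ± 0.25 in the unstimulated cells, granzyme A having fallen further than its inhibitor, with a spread over the IL-18 arrays like that of Serpinb9 minus Gzmb. Serpinb9b minus Gzmm averaged -1.28 ± 0.54 in the IL-18 generated cells and 1.17 ± 0.37 in the unstimulated cells, since Gzmm, the granzyme M gene, fell by 0.63 on the log2 scale and Serpinb9b by far more. Serpinb1a minus Elane, the neutrophil elastase gene, averaged 0.84 ± 0.42 in the IL-18 generated cells and -0.82 ± 0.54 in the unstimulated cells (SD, n = 3 each, throughout). Elane, Prtn3 and Ctsg, all 3 also on the neutrophil list, fell with -2.88 ± 0.44, -1.65 ± 0.32 and -2.30 ± 0.57, and for Ctsg, the cathepsin G gene, the groups overlapped. The change of Elane was -2.26 without unstimulated replicate 2, and that of Ctsg was -2.90 without IL-18 replicate 2 and also without unstimulated replicate 3. The pairs were put together after the values were known and are descriptions without a test.

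Cst7 had values of -0.53, -0.72 and -0.43 in the IL-18 generated cells, against 0.43, 0.64 and 0.44 in the unstimulated cells. The groups did not overlap, and the SD was 0.15 over the IL-18 arrays and 0.12 over the unstimulated ones. The change of -1.06 ± 0.10, a 2.09-fold decrease, had a limma adjusted p of 1.17e-05.

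Its target enzymes divided. Ctsc, the cathepsin C gene, fell less than Cst7, with -0.72 ± 0.10 (limma adjusted p 0.000244), and its arrays stood at -0.20, -0.47 and -0.42 in the IL-18 generated cells, against 0.20, 0.49 and 0.39 in the unstimulated cells. Cst7 minus Ctsc averaged -0.20 ± 0.16 in the IL-18 generated cells and 0.14 ± 0.09 in the unstimulated cells (SD, n = 3 each). Ctsh, for cathepsin H, fell with -2.09 ± 0.15, and Ctsl, for cathepsin L, did not pass (-0.08 ± 0.09, 95% interval -0.29 to 0.13). Of 11 cysteine cathepsin genes with legumain, 7 fell, 0 rose and 4 did not pass, while Ctsz, for cathepsin Z, rose without unstimulated replicate 3 (0.46, limma adjusted p 0.00488). The list's median change was -0.72. Ctss had the lowest change, -2.12 ± 0.20, but that of Ctsh was close. Over the fits without 1 array, Ctss ran from -2.33 to -1.84 and Ctsh from -2.25 to -1.90, so their order is uncertain. Cathepsins S and H are abundant in monocytes and macrophages, whose markers fell in the same arrays by a median of -2.95, and the part of those cells was not tested.

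**Figure D5:**
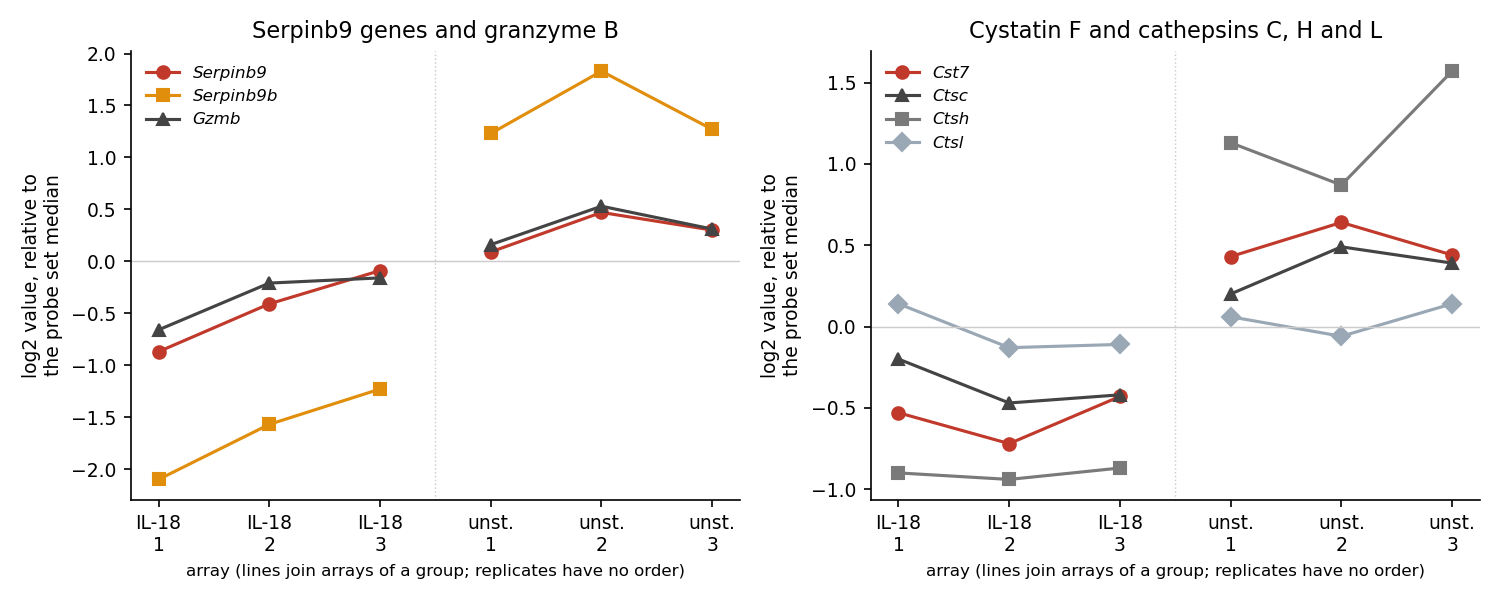
Log2 values on the 6 arrays, relative to the median of each probe set, for Serpinb9, Serpinb9b and Gzmb (left) and for Cst7, Ctsc, Ctsh and Ctsl (right). Lines join the arrays of a group and imply no order. Serpinb9 and Gzmb lie close together on every array, while Serpinb9b has the same shape over a wider range, and Ctsl stays between -0.13 and 0.14.

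Among 10 other measured cystatin and stefin genes, 1 fell, 1 rose and 8 did not pass. Without unstimulated replicate 2 the number that fell was 2, as Cst6, for cystatin E/M, passed as well (-0.30, limma adjusted p 0.0248). The median change of the list was -0.12. Cst3, which encodes the secreted cystatin C, fell with -1.35 ± 0.10 and had values of -0.58, -0.64 and -0.74 in the IL-18 generated cells, against 0.63, 0.58 and 0.91 in the unstimulated cells. Cstb, for the cytosolic cystatin B, rose by 0.79 ± 0.09, with arrays at 0.50, 0.49 and 0.26 in the IL-18 generated cells, against -0.42, -0.26 and -0.45 in the unstimulated cells. Limma adjusted p was 2.4e-06 for Cst3 and 5.65e-05 for Cstb. Monocytes also express Cst3, and their markers had a median change of -2.95 here; their part in the decrease was not tested.

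Srgn, the core protein of the granule proteoglycan, had values of -0.07, 0.00 and 0.00 in the IL-18 generated cells, against 0.00, 0.11 and -0.03 in the unstimulated cells. The groups overlapped. Its change of -0.05 ± 0.07 had a limma adjusted p of 0.649 and a 95% interval of -0.21 to 0.12, and that interval lay above those of the 6 genes that fell. Of all genes, 53.5% had a lower change than Srgn.

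Among the enzymes and transporters that build and sulfate the chains on serglycin and on other proteoglycans, more fell than rose. Of 31 measured, 12 (38.7%) fell, 6 (19.4%) rose and 13 did not pass. Of all genes 16.7% fell and 19.7% rose, so the share that rose was near that of all genes. Their median change was -0.16. Pxylp1, a phosphatase acting on the xylose of the linker, fell with -2.30 ± 0.12, and Xylt1, a xylosyltransferase that starts the chain, with -1.65 ± 0.09. B3galt6, a galactosyltransferase of the linker, rose by 1.26 ± 0.14, and Slc35d1, a transporter of nucleotide sugars, by 1.08 ± 0.12. Limma adjusted p for these 4 was at most 4.89e-05.

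Nkg7 varied little between replicates, with SDs of 0.07 in the IL-18 generated cells and 0.06 in the unstimulated cells. Its values were -0.50, -0.37 and -0.49 in the IL-18 generated cells, against 0.37, 0.48 and 0.38 in the unstimulated cells. The groups did not overlap, and the change of -0.87 ± 0.08, a 1.82-fold decrease, had a limma adjusted p of 8.79e-06. The NK cell markers had list means of -0.85 to -0.63 in the IL-18 generated cells and 0.60 to 0.88 in the unstimulated cells.

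The IL-18 arrays lay below all unstimulated arrays for 6 of the 8 genes, the same 6 that fell, and for 25.7% of all genes. They lay above all unstimulated arrays for 0 of the 8 and for 22.9% of all genes. Given how the 8 genes were chosen, these shares too are descriptions. By size of the decrease, the order was Serpinb9b, Serpinb6b, Serpinb1a, Cst7, Nkg7, Serpinb9, Serpinb6a and Srgn. The 95% interval of Serpinb9b (-3.55 to -2.61) lay below those of all other 7. The interval of Serpinb6b (-2.11 to -1.23) overlapped those of Serpinb1a (-1.76 to -0.68) and Cst7 (-1.28 to -0.85), and those of Nkg7 (-1.04 to -0.70) and Serpinb9 (-1.13 to -0.36) overlapped as well.

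For the 4 genes that fell by more than 2-fold, the 3 genes most alike over the 6 arrays were taken by the root mean square difference of their values, each gene centred on its own mean. For Serpinb9b these were Klf12, Cmah and Ms4a6c, with differences of 0.227 to 0.259 on the log2 scale. Ms4a6c is also on the list of monocyte markers, and the part of monocytes in the decrease of Serpinb9b was not tested. For Serpinb6b they were Klrc3, Adamts14 and Lef1 (0.135 to 0.184), and for Serpinb1a they were Slc18a2, Adgrg3 and P2rx1 (0.124 to 0.148). Coro7, Stk10 and Ppp1r9b were the most alike to Cst7, with 0.0409 to 0.0476. The 2 groups of arrays make up most of each pattern, so likeness says little beyond a decrease of similar size.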

How the data were processed

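RNA of 6 mouse NK cell preparations was labelled with biotin and measured on 1-colour Affymetrix arrays, per the labels' protocols. The authors deposited a table of 28815 probe sets. The sources used here do not give the summarization, the normalization or the log base. The log2 unit of the deposited values was read from the numbers. A probe set spanned up to 7.77, beyond log10 of a 16-bit scanner, and 44 of 239 probe sets that span too much for natural logarithms lay, within 0.15 steps, on the single-precision grid of numbers above 8, where chance gives 0.24% of probe sets. Each probe set is centred on its median, so planned steps that need a level (a variance trend) were not run. Array medians lay between -0.025 and 0.039, and no normalization was added. The 21788 probe sets with 1 gene symbol in the platform annotation were averaged to 19943 genes, of which 998 had more than 1.

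The comparison used limma 3.58.1 (lmFit and eBayes without a covariate) in R 4.3.3. The fit was tested on simulated data for this contrast with 19943 genes, of which 200 were changed, and with noise independent between genes. Of genes changed by a log2 of 0.5, 1 and 2 it recovered 49.3%, 97% and 100%, with 6 false calls among 170. In the real data 3332 genes fell and 3935 rose, far more than were simulated, so recovery there can differ. Within-array differences between paralogs were tested by exact permutation over arrays. Upstream sequences came from RefSeq (GRCm38.p6) and were aligned with Biopython 1.88 (match 2, mismatch -1, gap -5 and -1). Members, lists and motifs were chosen with earlier results of these data known. Named genes are the 8 members, the genes of the sort, up to 2 of the largest increases and 2 of the largest decreases that passed in each list, the proteases each inhibitor acts on and the 3 most alike genes. Gzmm and the other genes named to complete a count, a comparison of paralogs or the inhibitor pairs were picked after their values were seen. Alternatives were robust variances, quantile normalization, centring, array weights, probe sets as features, genes with 1 probe set, a block by replicate number and fits without 1 array.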

Additional observations from a re-analysis of the deposited data

How the results depend on the processing

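Serpinb9, Serpinb9b, Serpinb6b, Serpinb1a, Cst7 and Nkg7 fell and Srgn did not pass under all 13 alternatives each, and both paralog differences kept their direction under 8. Serpinb6a alone changed its call: it passed with array weights (-0.30) and with the replicate number as a block (-0.27), and its change ran from -0.36 to -0.20 over the fits that left out 1 array. The cause was not tested. The number of members that fell was 6 or 7 over the fits without 1 array, 4 with a log2 change of at least 1 added, and 6 at an adjusted p below 0.01; 0 rose in any. Same-numbered arrays of both groups had deviations correlated over genes at 0.238, 0.00738 and -0.02, so the numbers were not taken as pairs, and the block changed no other call of a member. The variance trend was not run. The array values hold no level, so signal over background cannot be judged.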

Other observations

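Genes of lytic granule trafficking and fusion, the machinery that releases the contents of the granules, fell more often than they rose. Of 22 measured, 7 (31.8%) fell, 2 (9.09%) rose and 13 did not pass, while of all genes 16.7% fell and 19.7% rose. Over the fits without 1 array, 5 to 8 fell and 1 or 2 rose, and the calls of Coro1a and Stx7 were among those that ended in some. Their median change was -0.21. Rab27a, the GTPase that docks granules at the membrane, fell with -1.13 ± 0.08 and had values of -0.52, -0.52 and -0.59 in the IL-18 generated cells, against 0.52, 0.67 and 0.58 in the unstimulated cells. Exoc4, a subunit of the exocyst tethering complex, rose by 0.72 ± 0.11, and Vamp7, a fusion protein of late endosomes and lysosomes, by 0.39 ± 0.11, a call that ended without IL-18 replicate 2 (limma adjusted p 0.0715). Cd63, a membrane protein of granules that mast cells and basophils also carry, fell with -0.88 ± 0.28, its groups overlapped, and its call ended in 4 of the 6 fits without 1 array (IL-18 replicate 1 or 3, unstimulated replicate 1 or 2), the highest limma adjusted p being 0.102.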
